A study of Mus musculus with 12 samples.

Results

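The genes described here are 10 members of the prostaglandin and leukotriene pathway (Pla2g4a, Ptgs1, Ptgs2, Ptges, Hpgds, Ptger2, Ptger4, Alox5, Alox5ap and Ltc4s) in RNA-seq libraries of mouse bone marrow-derived macrophages (BMDMs). They were chosen by gene symbol from a deposited table that held 43131 genes, and all 10 passed the filter on low counts in every comparison. BMDMs are macrophages grown in culture from bone marrow cells, here of C57BL/6 mice and with 50 ng/mL M-CSF, the macrophage growth factor, for 7 days. All 4 groups carried tlr4 alleles flanked by loxP sites (f/f). The tlr4f/f-lysM-cre groups also carried Cre recombinase under the lysM (Lyz2) promoter, which is active in the myeloid lineage, neutrophils included, and deletes tlr4 there. LPS, the endotoxin that TLR4 senses, was given at 1 µg/mL for 6 h to the LPS+ groups and not to the LPS- groups. Each combination of genotype and treatment had 3 libraries, 12 in all. Neither the age nor the sex of the marrow donors is given in the sources used here, and nothing says that the 3 libraries of a group came from separate animals, so p-values measure only the spread between these libraries, which may be technical.

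Prostanoids and leukotrienes are lipid mediators made from arachidonic acid, which cytosolic phospholipase releases from membranes. The cyclooxygenases Ptgs1, usually constitutive, and Ptgs2, inducible, turn it into prostaglandin H, and terminal synthases then make prostaglandin E (Ptges) or prostaglandin D (Hpgds). Alox5, with its helper protein Alox5ap, starts the leukotriene arm, and Ltc4s makes the cysteinyl leukotrienes. Macrophages stimulated through TLR4 are a textbook source of prostaglandin E.

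The headings of 6 of the 12 columns are in doubt, so groups are named below by their headings and each comparison is given with both readings. Tlr4, the targeted gene, was at 76.7, 147 and 121 CPM (counts scaled to library size, TMM-normalized) under the heading LPS- tlr4f/f and at 117, 95.1 and 116 CPM under LPS- tlr4f/f-lysM-cre. Under LPS+ tlr4f/f it was at 31.1, 27.8 and 24.3 CPM, and under LPS+ tlr4f/f-lysM-cre at 27.5, 24.6 and 24.8 CPM. Lyz2, the locus that holds Cre, was at 5950.3 to 23264 CPM in the LPS- columns of both genotypes and at 10.4 to 75.6 CPM in the LPS+ columns. Il1b, a classical LPS target, was at 0.0748 to 6.93 CPM in the tlr4f/f columns of both treatments and at 1639.9 to 8219.9 CPM in the tlr4f/f-lysM-cre columns. Tlr4 and Lyz2 thus split the columns by the LPS heading, and Il1b splits them by the genotype heading. If the heading LPS- tlr4f/f-lysM-cre is exchanged with LPS+ tlr4f/f, Tlr4 and Lyz2 are low in the libraries with Cre and Il1b is high in those with LPS. The levels and tests below are the same under both readings, and what changes is which condition a comparison is about.

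The macrophage markers Adgre1, Csf1r, Cd68, Itgam, Mertk, Fcgr1 and Cd14 were all at 1 CPM or more in all 12 libraries. Total counts, with 1 transcript per gene, were between 33577087 and 56445268 per library with a median of 45330681. Replicates in the LPS- columns were further apart than in the LPS+ columns: Pearson's r across genes, which are not independent replicates, was 0.928 to 0.964 within LPS- tlr4f/f and 0.955 to 0.961 within LPS- tlr4f/f-lysM-cre, against 0.989 to 0.991 within the LPS+ groups.

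Below are the sequences around the starts of the 2 cyclooxygenases and the 2 terminal synthases, whose levels separated the LPS+ groups in opposite directions. They run from 250 bases before to 50 bases after a start annotated by RefSeq, 5′ to 3′ on the strand of the gene, in GRCm38.p6, and capitals mark matches to the motifs searched. Ptgs2 lies on the forward strand (window chr1:150099781-150100080), as does Ptgs1 (chr2:36230176-36230475), and Ptges (chr2:30903248-30903547) and Hpgds (chr6:65144681-65144980) lie on the reverse strand. The gene spans given below are from GENCODE (mm10), and for Ptges and Hpgds they reach further upstream than the RefSeq start used here, so these 2 windows lie inside or partly inside the spans.
Ptgs2: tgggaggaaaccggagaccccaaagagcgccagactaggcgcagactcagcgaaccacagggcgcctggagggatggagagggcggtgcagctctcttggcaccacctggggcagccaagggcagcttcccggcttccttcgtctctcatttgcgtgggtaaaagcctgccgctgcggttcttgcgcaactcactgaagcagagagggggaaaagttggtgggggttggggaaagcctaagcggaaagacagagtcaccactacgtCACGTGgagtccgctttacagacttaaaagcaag
Ptgs1: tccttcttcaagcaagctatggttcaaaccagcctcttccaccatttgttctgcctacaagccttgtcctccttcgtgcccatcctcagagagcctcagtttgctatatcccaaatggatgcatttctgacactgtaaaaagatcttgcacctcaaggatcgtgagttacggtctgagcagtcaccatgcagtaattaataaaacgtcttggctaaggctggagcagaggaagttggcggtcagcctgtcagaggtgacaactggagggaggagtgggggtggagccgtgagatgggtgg
Ptges: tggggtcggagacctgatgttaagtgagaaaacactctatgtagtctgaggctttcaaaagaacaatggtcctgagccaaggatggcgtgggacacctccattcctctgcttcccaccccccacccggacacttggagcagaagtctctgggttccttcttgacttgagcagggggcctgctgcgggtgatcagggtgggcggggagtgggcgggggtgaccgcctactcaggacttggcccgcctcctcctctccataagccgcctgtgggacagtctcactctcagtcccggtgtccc
Hpgds: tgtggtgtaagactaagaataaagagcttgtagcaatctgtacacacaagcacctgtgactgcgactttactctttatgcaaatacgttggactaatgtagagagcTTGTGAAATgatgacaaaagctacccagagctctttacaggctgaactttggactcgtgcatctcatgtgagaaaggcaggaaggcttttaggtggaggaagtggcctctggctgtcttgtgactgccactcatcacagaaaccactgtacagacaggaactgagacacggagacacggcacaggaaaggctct
The motifs searched on both strands were the TATA box (TATAAA), the CRE (TGACGTCA), the AP-1 site (TGANTCA), the NF-kB site by name, the C/EBP site (TTNNGNAAT) and the E-box (CACGTG). The Ptgs2 window held 1 E-box, starting 16 bases after that start, and 7.15% of 32851 mouse promoter windows of the same length held one. The Hpgds window held 1 C/EBP match, 144 bases before the start, a motif found in 11.5% of windows. The Ptges and Ptgs1 windows held none of the 6 motifs in these spellings, and no matches overlapped in the 4 windows. Windows of 9 of the 10 genes were in the RefSeq table; that of Alox5ap was not. For the other motifs the share of windows with a match was 13.6% for the TATA box, 1.79% for the CRE, 7.81% for AP-1 and 4.51% for NF-kB.

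Among the 10 genes, the largest differences between the libraries headed tlr4f/f-lysM-cre and those headed tlr4f/f were in Ptgs2 and Ptges, the inducible route to prostaglandin E. Pla2g4a, Ptgs2 and Ptges were higher in the tlr4f/f-lysM-cre columns than in the tlr4f/f columns under both LPS headings. Ptgs1, Hpgds and Alox5 were lower in the tlr4f/f-lysM-cre columns and passed the test only between the LPS+ columns. Between the LPS- columns they were lower too, but did not pass it. As headed, these differences are genotype effects, without LPS between the LPS- columns and with LPS between the LPS+ columns. With the 2 headings exchanged, they are the effect of LPS, first in tlr4f/f cells and second in tlr4f/f-lysM-cre cells.

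**Figure D1:**
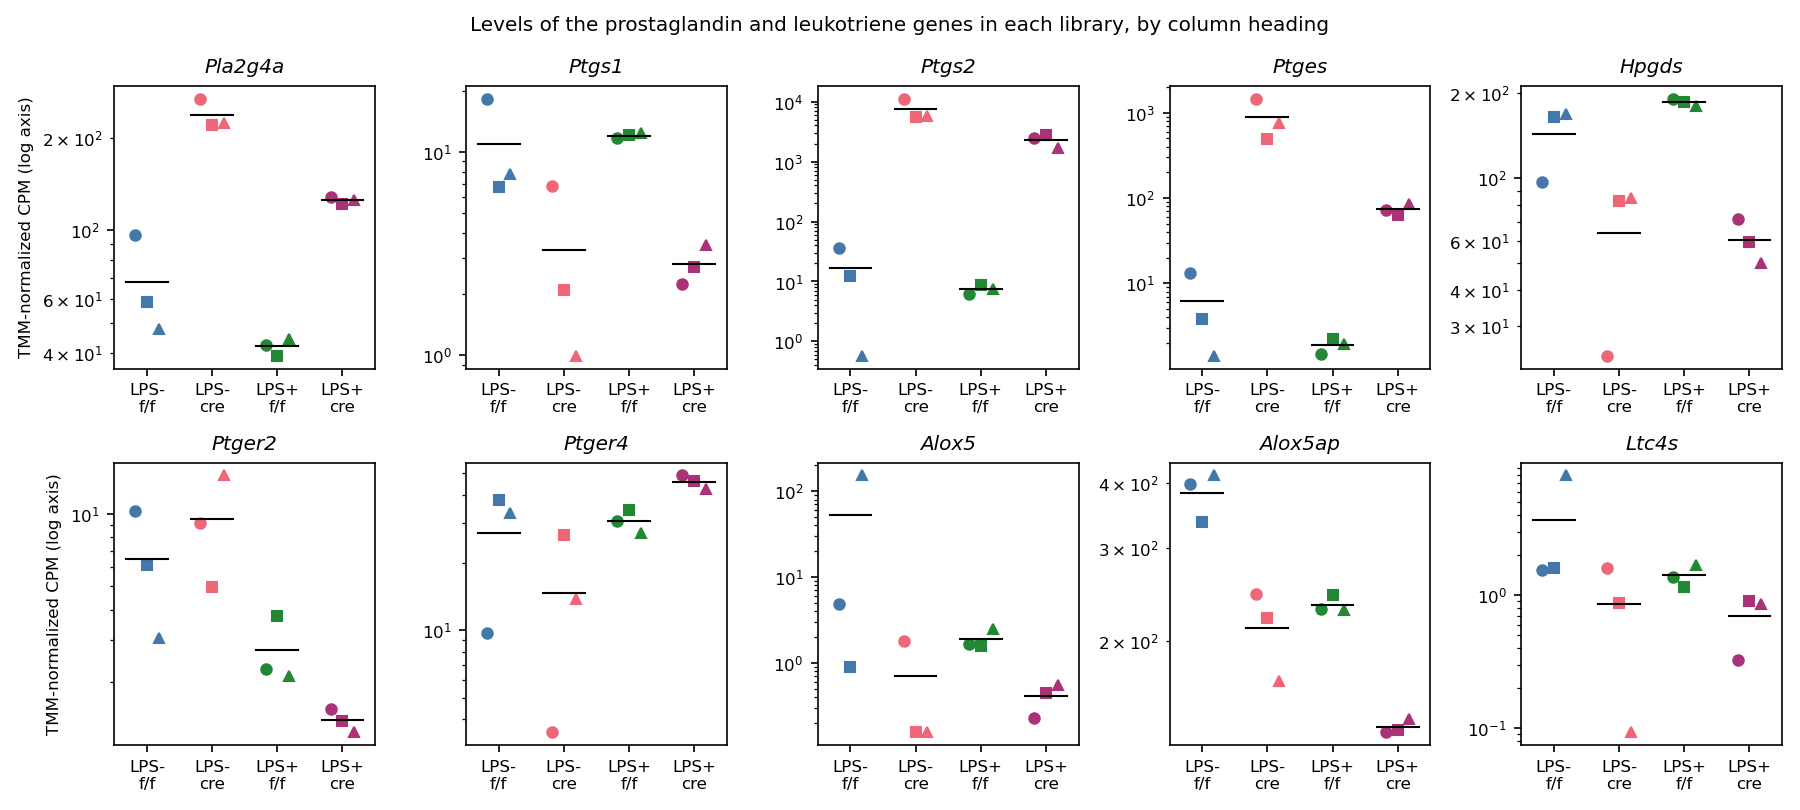
TMM-normalized CPM (log axis) of the 10 pathway genes in each library, by the heading of its column (f/f, tlr4f/f; cre, tlr4f/f-lysM-cre). Circles, squares and triangles are replicates 1, 2 and 3, and lines are group means; Ptgs2 runs from 0.579 CPM in LPS- tlr4f/f replicate 3 to 11128 CPM in LPS- tlr4f/f-lysM-cre replicate 1.

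Pla2g4a encodes the cytosolic phospholipase that releases arachidonic acid (mm10, chromosome 1, 149829618 to 149961290, reverse strand). It was at 96.8, 58.4 and 47.8 CPM in LPS- tlr4f/f and at 42.4, 39.1 and 44.4 CPM in LPS+ tlr4f/f. In the columns with Cre in their headings it was at 268, 221 and 223 CPM under LPS- and at 128, 122 and 126 CPM under LPS+. The tlr4f/f and tlr4f/f-lysM-cre columns did not overlap under either LPS heading. It was 3.48-fold higher in LPS- tlr4f/f-lysM-cre than in LPS- tlr4f/f (log2 fold change 1.80, SE 0.292; edgeR adjusted p = 0.00479). The difference was 2.97-fold between the LPS+ columns (log2 fold change 1.57, SE 0.0576; edgeR adjusted p = 2.16e-10). Between the 2 tlr4f/f-lysM-cre groups it was 1.88-fold lower in the LPS+ columns, below the 2-fold threshold although the edgeR adjusted p was 0.00395.

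Ptgs2, the inducible cyclooxygenase (chromosome 1, 150100031 to 150108227, forward strand), covered the widest range of the 10 genes. It was at 36.8, 12.2 and 0.579 CPM in LPS- tlr4f/f and at 6.24, 8.60 and 7.38 CPM in LPS+ tlr4f/f. In LPS- tlr4f/f-lysM-cre it was at 11128, 5611 and 5765 CPM, and in LPS+ tlr4f/f-lysM-cre at 2469, 2782 and 1709 CPM. Every tlr4f/f-lysM-cre library was thus above every tlr4f/f library, and the 3 LPS- tlr4f/f libraries were spread far apart. Ptgs2 was 449-fold higher in LPS- tlr4f/f-lysM-cre than in LPS- tlr4f/f (log2 fold change 8.81, SE 1.60; edgeR adjusted p = 0.00752), and without LPS- tlr4f/f replicate 3 the log2 fold change was 8.24 (edgeR adjusted p = 0.00314). It was 313-fold higher in LPS+ tlr4f/f-lysM-cre than in LPS+ tlr4f/f (log2 fold change 8.29, SE 0.291; edgeR adjusted p = 4.53e-06). LPS+ tlr4f/f-lysM-cre libraries lay 3.23-fold below LPS- tlr4f/f-lysM-cre libraries, with no overlap and an edgeR adjusted p of 0.0142 that missed the 0.01 threshold. Ptgs2 alone made up 79.1% to 86.6% of the summed CPM of the 10 genes in the tlr4f/f-lysM-cre columns, and 0.0693% to 5.37% in the tlr4f/f columns.

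Ptgs1, the constitutive cyclooxygenase (chromosome 2, 36230426 to 36252272, forward strand), was lower in the LPS+ tlr4f/f-lysM-cre columns. It was at 18.3, 6.71 and 7.81 CPM in LPS- tlr4f/f and at 11.7, 12.1 and 12.4 CPM in LPS+ tlr4f/f. It was at 6.79, 2.10 and 0.996 CPM in LPS- tlr4f/f-lysM-cre and at 2.24, 2.73 and 3.51 CPM in LPS+ tlr4f/f-lysM-cre. Only the LPS+ columns separated fully, with Ptgs1 4.27-fold lower in LPS+ tlr4f/f-lysM-cre (log2 fold change -2.09, SE 0.152; edgeR adjusted p = 1.14e-07). Between the LPS- columns it was 3.33-fold lower in the tlr4f/f-lysM-cre group, where 1 pair of libraries crossed and the edgeR adjusted p was 0.121. An unstranded count could mix Ptgs1 with Gm43621, an unclassified gene on the opposite strand that shares 148 exon bases with it, and whether the counting used strand is not given in the sources used here.

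Ptges, the inducible prostaglandin E synthase (chromosome 2, 30889471 to 30929863, reverse strand), had the same split as Ptgs2. It was at 13.4, 3.80 and 1.42 CPM in LPS- tlr4f/f and at 1.47, 2.20 and 1.96 CPM in LPS+ tlr4f/f. It was at 1457, 494 and 761 CPM in LPS- tlr4f/f-lysM-cre, and at 72.6, 64.1 and 85.0 CPM in LPS+ tlr4f/f-lysM-cre. Both tlr4f/f-lysM-cre groups stood above all tlr4f/f libraries, and they did not overlap each other. The difference was 144-fold between the LPS- columns (log2 fold change 7.17, SE 1.06; edgeR adjusted p = 0.00377) and 39.4-fold between the LPS+ columns (log2 fold change 5.30, SE 0.158; edgeR adjusted p = 8.38e-09). Ptges was 12.2-fold lower in LPS+ tlr4f/f-lysM-cre than in LPS- tlr4f/f-lysM-cre (log2 fold change -3.61, SE 0.425; edgeR adjusted p = 0.00300).

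Hpgds, the haematopoietic prostaglandin D synthase (chromosome 6, 65117293 to 65144908, reverse strand), was also lower in the LPS+ tlr4f/f-lysM-cre columns, where Ptges was higher. It was at 96.4, 164 and 168 CPM in LPS- tlr4f/f and at 190.2, 186 and 179 CPM in LPS+ tlr4f/f. It was at 23.5, 83.0 and 85.0 CPM in LPS- tlr4f/f-lysM-cre, and at 71.5, 59.4 and 50.1 CPM in LPS+ tlr4f/f-lysM-cre. No tlr4f/f-lysM-cre library reached the lowest tlr4f/f library. The difference passed the test between the LPS+ columns, 3.08-fold lower (log2 fold change -1.62, SE 0.116; edgeR adjusted p = 7.06e-06). Between the LPS- columns it was 2.25-fold lower with an edgeR adjusted p of 0.112.

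The balance between the paired enzymes was computed within each library from CPM per kilobase of transcript, so that library size cancels. The ratio of Ptgs2 to Ptgs1 was 2.22, 2.01 and 0.0818 in LPS- tlr4f/f and 0.587, 0.786 and 0.659 in LPS+ tlr4f/f. It was 1807, 2952 and 6381 in LPS- tlr4f/f-lysM-cre and 1214, 1123 and 537 in LPS+ tlr4f/f-lysM-cre. The ratio of Ptges to Hpgds was 0.126, 0.0210 and 0.00766 in LPS- tlr4f/f and 0.00697, 0.0107 and 0.00989 in LPS+ tlr4f/f. It was 56.1, 5.38 and 8.10 in LPS- tlr4f/f-lysM-cre and 0.918, 0.977 and 1.53 in LPS+ tlr4f/f-lysM-cre. Transcripts of the prostaglandin E synthase thus outnumbered those of the D synthase in all 3 libraries headed LPS- tlr4f/f-lysM-cre, were about level with them in LPS+ tlr4f/f-lysM-cre, and were fewer in all 6 tlr4f/f libraries. The transcript row taken for Ptgs1 is a RefSeq model of 4917 bases, and its per-kilobase level depends on that choice. The ratio of Ptges to Hpgds depends on the row too. Hpgds had 2 rows, the second with 41.0% of the total counts of the first, and Ptges had 1.

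**Figure D2:**
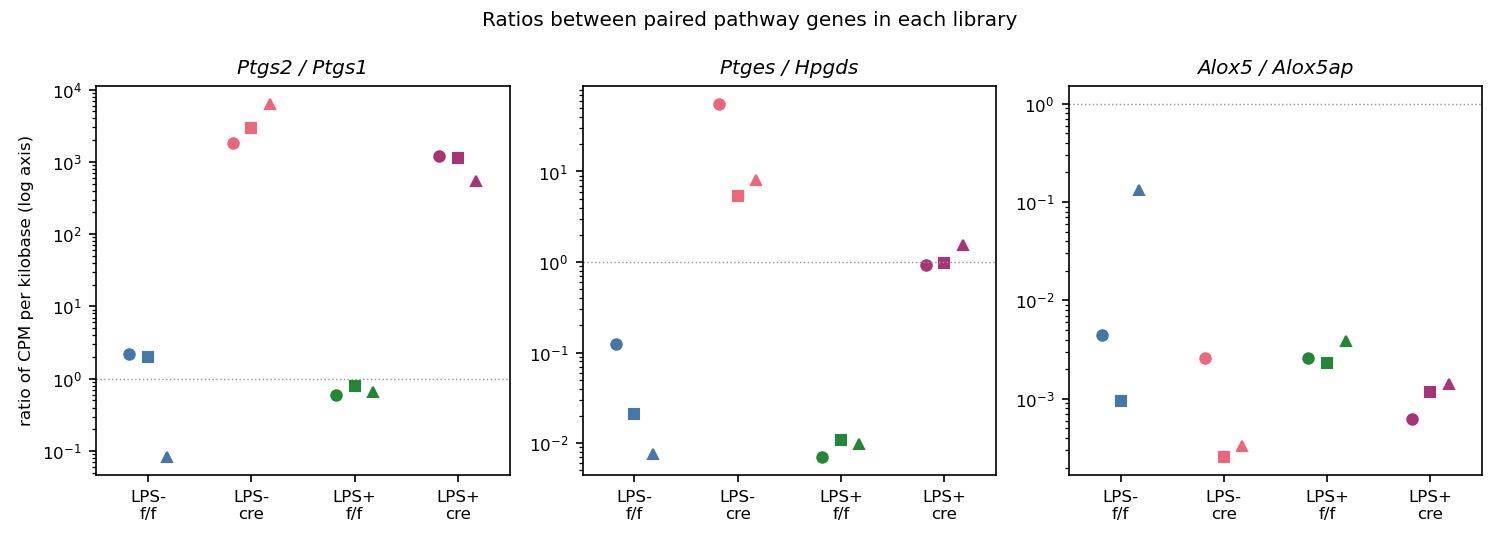
Ratio of CPM per kilobase (log axis) between Ptgs2 and Ptgs1, Ptges and Hpgds, and Alox5 and Alox5ap in each library, by column heading (f/f, tlr4f/f; cre, tlr4f/f-lysM-cre). Circles, squares and triangles are replicates 1, 2 and 3, and the dotted line marks equal levels; the first ratio lies between 537 and 6381 in the cre columns and at 2.22 or below in the f/f columns.

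Ptger2 and Ptger4 encode the prostaglandin E receptors that couple to cyclic AMP, and they did not move together. Ptger2 (chromosome 14, 44988195 to 45003820, forward strand) was at 10.2, 6.10 and 3.05 CPM in LPS- tlr4f/f and at 9.15, 4.97 and 14.4 CPM in LPS- tlr4f/f-lysM-cre, which overlap. It was at 2.26, 3.76 and 2.13 CPM in LPS+ tlr4f/f and at 1.55, 1.38 and 1.24 CPM in LPS+ tlr4f/f-lysM-cre. The lowest group was therefore LPS+ tlr4f/f-lysM-cre, 6.84-fold below LPS- tlr4f/f-lysM-cre (log2 fold change -2.77, SE 0.417; edgeR adjusted p = 0.00629). Between the LPS+ columns the difference was 1.95-fold, just under the 2-fold threshold, with an edgeR adjusted p of 0.00532.

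Ptger4 (chromosome 15, 5206661 to 5244187, reverse strand) was at 9.73, 38.1 and 33.4 CPM in LPS- tlr4f/f and at 3.51, 26.5 and 13.8 CPM in LPS- tlr4f/f-lysM-cre. It was at 30.6, 34.3 and 27.1 CPM in LPS+ tlr4f/f and at 49.0, 46.2 and 42.7 CPM in LPS+ tlr4f/f-lysM-cre. The highest group was LPS+ tlr4f/f-lysM-cre, and replicate 1 was the lowest library in both LPS- groups. Ptger4 was higher in LPS+ tlr4f/f-lysM-cre than in LPS+ tlr4f/f (log2 fold change 0.58, SE 0.0847; edgeR adjusted p = 7.74e-05), and 3.20-fold higher than in LPS- tlr4f/f-lysM-cre (log2 fold change 1.68, SE 0.608; edgeR adjusted p = 0.0850). Neither was called, the first on its size and the second on its p. Both receptors share exon bases with genes on the opposite strand, Ptger2 with Gm49364 (144 bases) and Gm17173 (246 bases), and Ptger4 with Ttc33 (82 bases) and Gm15937 (1015 bases).

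Alox5, the lipoxygenase that starts leukotriene synthesis (chromosome 6, 116410077 to 116461178, reverse strand), was low in most libraries and high in 1. It was at 4.91, 0.899 and 153 CPM in LPS- tlr4f/f and at 1.66, 1.59 and 2.50 CPM in LPS+ tlr4f/f. It was at 1.80, 0.156 and 0.156 CPM in LPS- tlr4f/f-lysM-cre and at 0.231, 0.441 and 0.555 CPM in LPS+ tlr4f/f-lysM-cre. LPS- tlr4f/f replicate 3 held 8212 counts, against 5 to 287 in the other 11 libraries. The LPS+ columns did not overlap, and Alox5 was 4.69-fold lower in LPS+ tlr4f/f-lysM-cre than in LPS+ tlr4f/f (log2 fold change -2.23, SE 0.346; edgeR adjusted p = 0.000113). The 73.4-fold lower value in LPS- tlr4f/f-lysM-cre against LPS- tlr4f/f (edgeR adjusted p = 0.0664) rested on that library: without it the log2 fold change went from -6.20 to -2.05 (edgeR adjusted p = 0.284). For LPS+ tlr4f/f against LPS- tlr4f/f it went from -4.75 to -0.58 (edgeR adjusted p = 0.182 and 0.618).

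Alox5ap, the membrane protein that presents arachidonic acid to Alox5 (chromosome 5, 149264767 to 149288153, forward strand), was far higher than the enzyme it serves. It was at 398, 337 and 413 CPM in LPS- tlr4f/f and at 229 to 244 CPM in LPS+ tlr4f/f. It was at 246, 221 and 168 CPM in LPS- tlr4f/f-lysM-cre, and at 134, 135 and 142 CPM in LPS+ tlr4f/f-lysM-cre. It was lower under the tlr4f/f-lysM-cre heading, by 1.82-fold between the LPS- columns (log2 fold change -0.86, SE 0.196; edgeR adjusted p = 0.0153) and by 1.72-fold between the LPS+ columns (log2 fold change -0.78, SE 0.0527; edgeR adjusted p = 5.70e-08). Neither reached 2-fold. Per kilobase, the ratio of Alox5 to Alox5ap was 0.133 in LPS- tlr4f/f replicate 3 and 0.000254 to 0.00442 in the other 11 libraries. Alox5ap shares 189 exon bases with Gm19719, an antisense gene.

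Ltc4s, the leukotriene C synthase (chromosome 11, 50236461 to 50238616, reverse strand), was at 1.54, 1.59 and 7.98 CPM in LPS- tlr4f/f, where replicate 3 again stood apart. It was at 1.38, 1.15 and 1.70 CPM in LPS+ tlr4f/f, at 1.61, 0.876 and 0.0934 CPM in LPS- tlr4f/f-lysM-cre, and at 0.324, 0.910 and 0.866 CPM in LPS+ tlr4f/f-lysM-cre. The lowest of these stood on 3 counts. The LPS+ columns differed by 2.05-fold without overlap, lower under the tlr4f/f-lysM-cre heading, and the edgeR adjusted p of 0.0259 missed the threshold. Ltc4s shares 268 exon bases with Gm26542, an antisense gene.

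**Figure D3:**
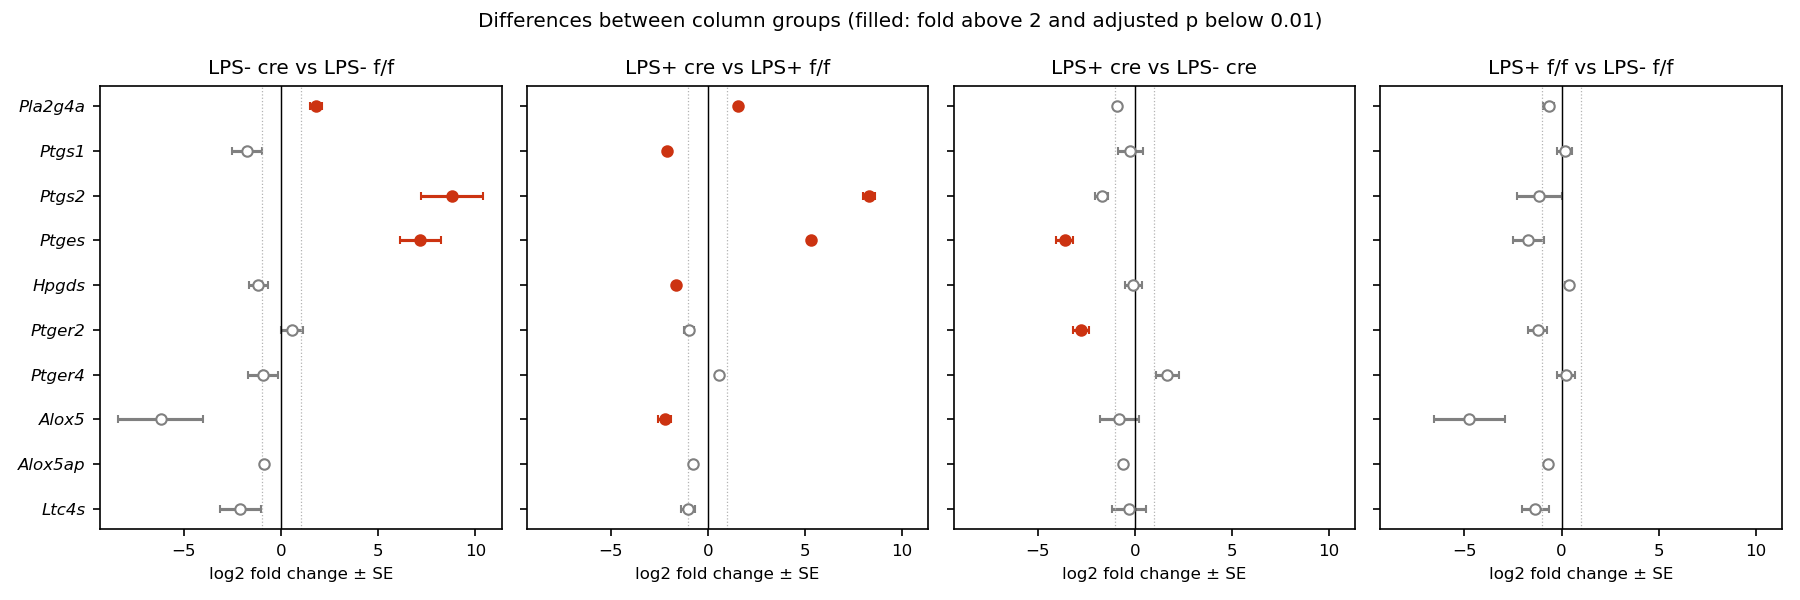
Log2 fold change ± SE of each pathway gene in the 4 comparisons of column groups (f/f, tlr4f/f; cre, tlr4f/f-lysM-cre), first named group minus second. Fold changes are from the edgeR fit, and the SE was derived from the fold change and the F statistic of its test. Filled red points passed a fold change above 2 (dotted lines) and an adjusted p below 0.01: 3 in the first panel, 6 in the second, 2 in the third and 0 in the fourth.

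A gene was called when its fold change was above 2 and its edgeR adjusted p, over all genes tested, below 0.01. Between LPS- tlr4f/f-lysM-cre columns and LPS- tlr4f/f columns, 3 of the 10 genes were called higher (Pla2g4a, Ptgs2 and Ptges) and 0 lower, where 9.25% of 14635 genes tested were higher and 7.81% lower. As headed this is the genotype effect without LPS, and exchanged it is the effect of LPS in tlr4f/f. The median log2 fold change of the 10 genes was -0.89 against -0.08 over all genes. These calls were sensitive to single libraries: leaving out LPS- tlr4f/f replicate 2 or any 1 LPS- tlr4f/f-lysM-cre library ended all 3, with edgeR adjusted p between 0.0106 and 0.0360. Leaving out LPS- tlr4f/f replicate 1 ended the call of Ptgs2 (0.0126), and leaving out replicate 3 that of Pla2g4a (0.0118). The calls over all genes in these fits are not given here, so the losses are not shown to be particular to these genes.

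Between LPS+ tlr4f/f-lysM-cre columns and LPS+ tlr4f/f columns, 3 genes were called higher (Pla2g4a, Ptgs2 and Ptges) and 3 lower (Ptgs1, Hpgds and Alox5), where 10.8% of 14540 genes were higher and 10.9% lower. All 10 genes had an edgeR adjusted p below 0.05, as did 61.4% of all genes. As headed this is the genotype effect with LPS, and exchanged it is the effect of LPS in tlr4f/f-lysM-cre. The median log2 fold change was -0.87 against -0.02 over all genes. The 3 higher calls stood when all 12 libraries shared a single estimate of spread. The 3 lower calls were lost in that fit, at edgeR adjusted p of 0.0231 (Ptgs1), 0.0112 (Hpgds) and 0.337 (Alox5). Calls over all genes in that fit are not given here.

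Between LPS+ tlr4f/f-lysM-cre columns and LPS- tlr4f/f-lysM-cre columns, 0 genes were called higher and 2 lower (Ptges and Ptger2), where 2.42% of 14234 genes were higher and 3.65% lower. As headed this is the effect of LPS in tlr4f/f-lysM-cre, and exchanged it is the genotype effect with LPS. The median log2 fold change was -0.71 against 0.03. Leaving out any 1 LPS+ tlr4f/f-lysM-cre library ended both calls, with edgeR adjusted p from 0.0249 to 0.0430, and leaving out LPS- tlr4f/f-lysM-cre replicate 1 ended that of Ptger2 (0.0107). Calls over all genes also fell when an LPS+ tlr4f/f-lysM-cre library was left out, as given below. Under DESeq2, Ptgs2 was also called lower, with an adjusted p of 2.17e-06, and calls over all genes by DESeq2 are not given here.

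Between LPS+ tlr4f/f and LPS- tlr4f/f columns no member was called by edgeR, and 0.00% of 14701 genes were called in either direction. As headed this is the effect of LPS in tlr4f/f, and exchanged it is the genotype effect without LPS. At an unadjusted p under 0.05 there were 4 members (Pla2g4a, Ptger2, Alox5 and Alox5ap) and 24.7% of all genes. Limma and DESeq2 also called 0 members, although DESeq2 called 467 genes in all. The smallest edgeR adjusted p among the members was 0.0509, for Alox5ap, 1.61-fold lower in LPS+ tlr4f/f (log2 fold change -0.68, SE 0.111).

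The interaction of genotype and LPS asks whether the difference between genotypes is the same with and without LPS, and it has the same value under both readings of the headings. No member was called by edgeR, where 0.659% of 15775 genes were called higher and 0.380% lower. At an unadjusted p under 0.05 there was 1 member, Ptger2 (log2 interaction -1.52, SE 0.650; edgeR adjusted p = 0.186), and 23.5% of all genes. The estimates for Ptgs2 (-0.53, SE 1.26) and Ptges (-1.88, SE 0.925) had wide errors, so neither a difference between the comparisons nor its absence was shown. DESeq2 and limma also called 0 members. The comparisons share groups, and their values are therefore set side by side only.

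The order of the 10 genes by mean CPM per kilobase differed between headings. In LPS- tlr4f/f and LPS+ tlr4f/f it began with Alox5ap (378 and 231), Hpgds (43.3 and 56.2) and Pla2g4a (23.7 and 14.7), whose libraries did not overlap with each other in the second group, and Ptges was last (0.515) in the second group. Below those, the libraries of Ptgs1, Ltc4s and Ptgs2 overlapped with their neighbours in LPS+ tlr4f/f, as did those of Ptger2, Alox5 and Ptges. In LPS- tlr4f/f the lowest means, of Ptges and Ptger2, were both 1.71, and the mean of Alox5 (18.8) came mainly from replicate 3 (54.3, against 1.74 and 0.318). In LPS- tlr4f/f-lysM-cre it began with Ptgs2 (1682), Ptges (248), Alox5ap (209) and Pla2g4a (83.0), and Ptges and Alox5ap overlapped between libraries. In LPS+ tlr4f/f-lysM-cre Ptgs2 (520.1) was followed by Alox5ap (135), Pla2g4a (43.9), Ptges (20.3) and Hpgds (18.3), and Ptges overlapped Hpgds. Ptger4 was sixth in both tlr4f/f-lysM-cre groups (4.38 under LPS- and 13.8 under LPS+), and Alox5 was last in both (0.249 and 0.145).

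Beyond the 10 genes, a list of 51 other genes of phospholipase, prostanoid, leukotriene and lipoxin metabolism and signalling was followed. Between LPS- tlr4f/f-lysM-cre columns and LPS- tlr4f/f columns, 3 of 36 tested were called higher (Fpr2, Alox12 and Ptgdr2) and 2 lower (Pla2g15 and Cbr1), against 9.25% and 7.81% of all genes, with a median log2 fold change of -0.08, that of all genes. Between the LPS+ columns, 6 of 32 were higher (Fpr2, Alox12, Ptgdr2, Ptgir, Cysltr1 and Abcc1) and 3 lower (Ltb4r1, Hpgd and Pla2g15), against 10.8% and 10.9%, with a median of 0.08 against -0.02. Between the tlr4f/f-lysM-cre columns 1 of 34 was lower (Fpr2), against 3.65%, and between the tlr4f/f columns 0 of 33 were called by edgeR, with 9 at an unadjusted p under 0.05, where 24.7% of all genes were. The interaction called 0 of 38 by edgeR, with 6 at an unadjusted p under 0.05, where 23.5% of all genes were. Ptgdr2, Ptgir, Cysltr1 and Abcc1 are outside the naming rule and were named after their values were seen.

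Fpr2, a formyl peptide and lipoxin receptor, followed Ptgs2. It was at 5.22, 4.64 and 0.336 CPM in LPS- tlr4f/f and at 0.691, 0.102 and 0.413 CPM in LPS+ tlr4f/f. It was at 255, 277 and 332 CPM in LPS- tlr4f/f-lysM-cre, and at 108, 113 and 81.5 CPM in LPS+ tlr4f/f-lysM-cre. Under the tlr4f/f-lysM-cre heading it was 83.9-fold higher between the LPS- columns (log2 fold change 6.39, SE 0.996; edgeR adjusted p = 0.00450) and 238-fold higher between the LPS+ columns (log2 fold change 7.89, SE 0.347; edgeR adjusted p = 1.13e-05). LPS+ tlr4f/f-lysM-cre was 2.84-fold below LPS- tlr4f/f-lysM-cre (edgeR adjusted p = 0.00289).

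Alox12, the platelet-type lipoxygenase, had 1, 1 and 3 counts in LPS- tlr4f/f against 64, 25 and 20 in LPS- tlr4f/f-lysM-cre. Over the pooled normalized counts the ratio was 37.5, with an exact 95% counting interval of 15.6 to 118. Between the LPS+ columns there were 4, 1 and 3 counts against 19, 29 and 37, a ratio of 12.4 (6.00 to 29.6). Ltb4r1, the high-affinity leukotriene B receptor, had 20, 23 and 26 counts in LPS+ tlr4f/f and 1, 0 and 1 in LPS+ tlr4f/f-lysM-cre, a ratio of 29.6 (7.90 to 249.7). These intervals pool the libraries of a group and cover counting error only, not the spread between libraries. The reads carried no molecular identifiers and may repeat a molecule, so the counting error itself may be larger.

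Hpgd, the dehydrogenase that inactivates prostaglandins, was at 32.3, 35.1 and 22.6 CPM in LPS+ tlr4f/f and at 2.29, 2.95 and 1.44 CPM in LPS+ tlr4f/f-lysM-cre, 13.7-fold lower (log2 fold change -3.77, SE 0.286; edgeR adjusted p = 4.70e-05). It was at 20.6, 11.3 and 232 CPM in LPS- tlr4f/f and at 1.56, 1.66 and 0.840 CPM in LPS- tlr4f/f-lysM-cre (edgeR adjusted p = 0.0154), with LPS- tlr4f/f replicate 3 high as it was for Alox5 and Ltc4s. Pla2g15, the lysosomal phospholipase, was at 136 to 172 CPM in LPS- tlr4f/f and at 34.9 to 52.5 CPM in LPS- tlr4f/f-lysM-cre, 3.77-fold lower (edgeR adjusted p = 0.00130). Cbr1, a carbonyl reductase that acts on prostaglandin E, was at 22.3 to 30.8 CPM in LPS- tlr4f/f and at 10.4 to 15.2 CPM in LPS- tlr4f/f-lysM-cre, 2.27-fold lower (edgeR adjusted p = 0.00688).

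**Figure D4:**
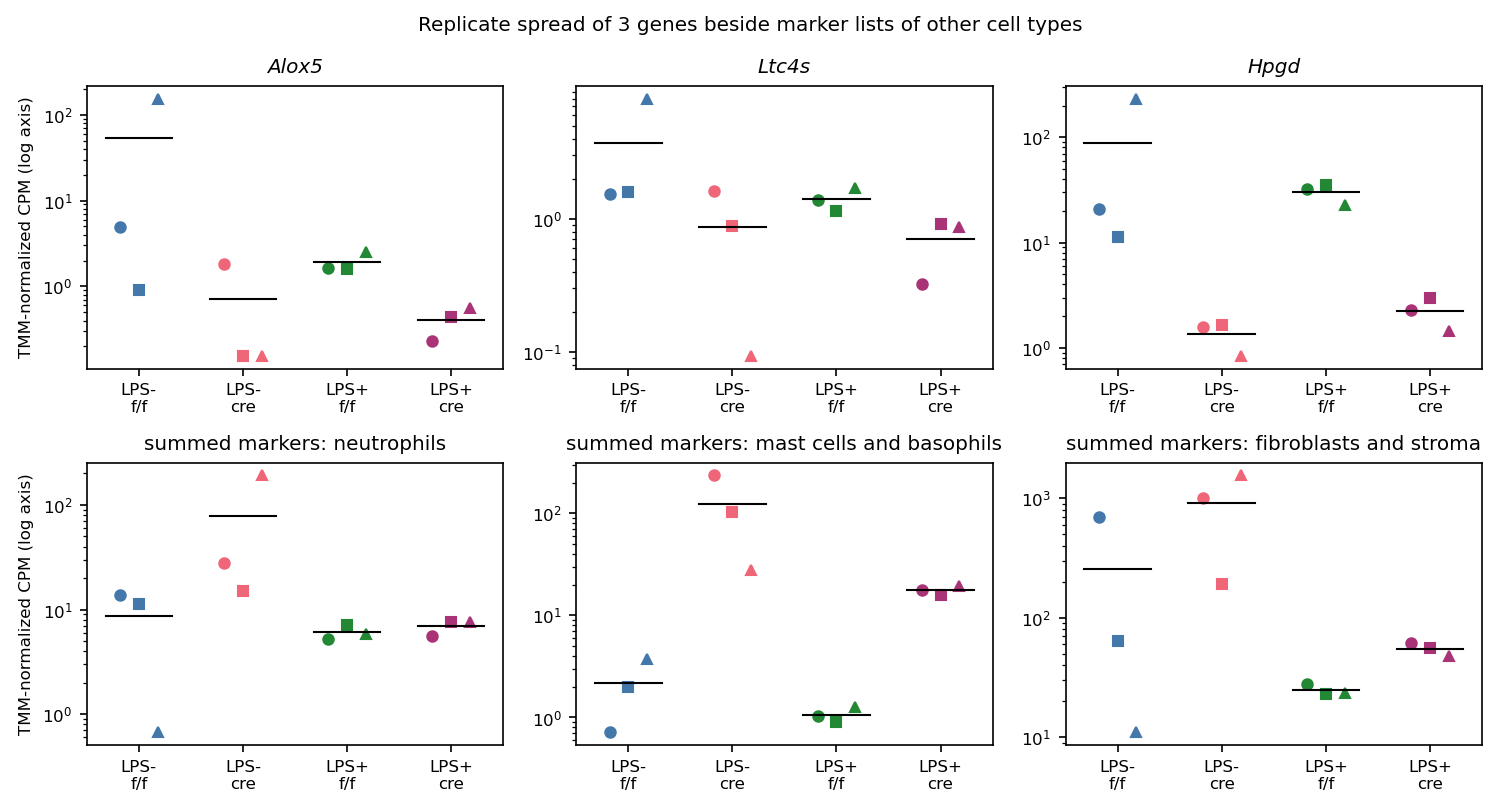
Top, TMM-normalized CPM (log axis) of Alox5, Ltc4s and Hpgd in each library; bottom, summed CPM of marker genes of neutrophils, of mast cells and basophils, and of fibroblasts and stroma, by column heading (f/f, tlr4f/f; cre, tlr4f/f-lysM-cre). Circles, squares and triangles are replicates 1, 2 and 3, and lines are means; LPS- tlr4f/f replicate 3 is the highest library for the 3 genes and the lowest for the neutrophil and stroma lists.

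Other cell types that use this pathway were followed with marker lists. In LPS- tlr4f/f replicate 3, where Alox5, Ltc4s and Hpgd were high, the 10 neutrophil markers summed to 0.673 CPM, with Ly6g, Mpo, Elane and Retnlg at 0, against 5.20 to 192 CPM in the other libraries. The 11 mast cell and basophil markers summed to 3.76 CPM there, the highest sum among the 6 tlr4f/f libraries, against 0.718 and 2.01 CPM in replicates 1 and 2. Most of it was Kit, at 3.61 CPM against 0.222 and 1.17 CPM; Cpa3 had 4 counts against 0 and 0, and 8 of the 11 markers, among them Mcpt4, Mcpt8, Cma1, Tpsb2 and Tpsab1, were at 0. The part of such cells in the levels of Alox5, Ltc4s and Hpgd was not tested. The mast cell and basophil sum was 27.8 to 236 CPM in LPS- tlr4f/f-lysM-cre and 16.0 to 19.5 CPM in LPS+ tlr4f/f-lysM-cre, against 0.718 to 3.76 CPM in the tlr4f/f columns, and there 1 of its 11 genes, Hdc, was at 1 CPM or more in each library. Fibroblast and stroma markers summed to 689.5, 63.8 and 11.0 CPM in LPS- tlr4f/f, replicates 1, 2 and 3, the order that Ptgs2 and Ptges had there. They summed to 1010.1, 192 and 1551 CPM in LPS- tlr4f/f-lysM-cre, to 27.7, 22.9 and 23.3 CPM in LPS+ tlr4f/f, and to 60.9, 55.8 and 47.7 CPM in LPS+ tlr4f/f-lysM-cre. In those 3 groups the order of the libraries was not that of Ptgs2 or of Ptges, and none of the 9 markers was at 0. Their part in the levels of Ptgs2 and Ptges was not tested. The eosinophil sum was 2.24 to 37.2 CPM, the megakaryocyte and platelet sum 0.0748 to 4.64 CPM and the dendritic cell sum 0.224 to 6.13 CPM over all libraries. In bulk RNA, fewer cells of a type and less RNA per cell cannot be told apart.

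The genes most like Ptgs2 in log2 CPM over the 12 libraries, among 15774 genes, were Itgal (Pearson's r 0.997), an integrin chain, Gbp7 (0.996), an interferon-inducible GTPase, and Il6 (0.995), a cytokine. Il6 was at 0.00 to 1.18 CPM in LPS- tlr4f/f, 0.126 to 0.333 CPM in LPS+ tlr4f/f, 444 to 1303 CPM in LPS- tlr4f/f-lysM-cre and 161 to 248 CPM in LPS+ tlr4f/f-lysM-cre. Those most like Ptgs1 were Adssl1 (0.963), Bzw2 (0.954) and Dut (0.947). Dut, the enzyme that removes dUTP, was at 11.1 to 21.2 CPM in LPS- tlr4f/f and 15.6 to 18.2 CPM in LPS+ tlr4f/f, against 0.965 to 4.24 and 2.82 to 4.02 CPM in the tlr4f/f-lysM-cre columns. These correlations are a description: the 12 points share 4 groups and their libraries.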

How the data were processed

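RNA-seq of BMDMs was deposited as 1 table of read counts per transcript for 12 libraries. The study's methods name polyA RNA sequencing, and the labels name both that and rRNA removal. Per the labels and these methods, the authors prepared libraries with a NEBNext Ultra kit (strand setting not given in the sources used here), sequenced paired reads of 150 bases, trimmed them with Trimmomatic 0.36, used HISAT2 for alignment to mm10 and HTSeq for counting; the deposited counts are not normalized. Of 115140 transcript rows (106335 RefSeq, 8805 Ensembl), the row with the highest total was taken for each of 43131 genes; 7551 of 7596 Ensembl gene IDs matched a symbol. Every row named a gene.

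The main test was the quasi-likelihood test of edgeR 4.0.16 (R 4.3.3), with robust fitting, TMM factors, the filterByExpr filter and Benjamini-Hochberg adjustment over all genes tested. Each comparison used its 6 libraries and the interaction all 12. The SE given with edgeR values is the size of the log2 fold change divided by the square root of the test's F statistic. Genes were called at more than 2-fold change with adjusted p under 0.01, as the study did. CPM are TMM-normalized, and correlations used log2 CPM with a prior count of 2. DESeq2 1.42.0, limma 3.58.1 (voom with sample quality weights), RLE factors, 2 other filters, a single fit of the 12 libraries, a replicate block, sums over transcript rows, an adjusted p below 0.05 and leaving out each library were the alternatives. On simulated counts with 200 genes changed by 2 on the log2 scale, the test recovered 28.0% in LPS- tlr4f/f-lysM-cre versus LPS- tlr4f/f, 90.5% between the LPS+ columns, 66.0% between the tlr4f/f-lysM-cre columns, 55.0% between the tlr4f/f columns and 40.5% in the interaction. False calls were 1, 0, 4, 1 and 0 in that order. The simulated counts followed the type of model that edgeR fits, with 1 spread per gene for all groups. The LPS- and LPS+ columns differed in spread, so recovery in the real data may differ.

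The 10 members, the lists and the tests were chosen with earlier results of these data known. The result of 1 marker gene is not reported here. Of the 51 other pathway genes, the text names per comparison the 2 called genes with the largest change in each direction with groups that did not overlap and with 10 or more counts in each library of the higher one.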

Additional observations from a re-analysis of the deposited data

How the results depend on the processing

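Of the 10 genes, 3 were called between the LPS- columns, and 1 with no filter beyond 1 count; leaving out 1 library gave 0 to 2. Between the LPS+ columns 6 were called, and 3 in a single fit of all 12 libraries; leaving out 1 library gave 6 to 7. Between the tlr4f/f-lysM-cre columns 2 were called, and leaving out 1 library gave 0 to 2. There, leaving out an LPS+ tlr4f/f-lysM-cre library left 4, 7 or 15 calls over all genes, against 865 with all 6 libraries. Between the tlr4f/f columns and in the interaction 0 members were called under every alternative that was run; over all genes the former gave 0 calls in edgeR as reported, 34 with no filter beyond 1 count, 74 in the single fit of 12 libraries, 28 in limma and 467 in DESeq2. Between the LPS- and between the LPS+ columns, calls over all genes under these alternatives are not given here, so member counts stand alone. The cause of these shifts was not tested.

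The replicate numbers were not treated as pairs: the correlation of deviations between libraries of the same number was 0.01 to 0.47 between the LPS- columns, 0.06 to 0.19 between the LPS+ columns, -0.04 to 0.10 between the tlr4f/f-lysM-cre columns and -0.01 to 0.16 between the tlr4f/f columns. Between the LPS+ columns 3 of 3 libraries of the first group were closest to their own number, between the LPS- columns 2 of 3. With a replicate block 1 member was called between the tlr4f/f-lysM-cre columns (and 212 genes against 865), with Ptger2 lost at an edgeR adjusted p of 0.0177, 2 between the LPS- columns, with Ptgs2 lost at 0.0120, 6 between the LPS+ columns and 0 between the tlr4f/f columns and in the interaction. Calls over all genes with the block are given only for the tlr4f/f-lysM-cre columns, so the other member counts stand without a share. With the block, the log2 fold changes between the tlr4f/f-lysM-cre columns turned to 0.19 (Ptgs1), 0.10 (Hpgds), 0.10 (Alox5) and 0.09 (Ltc4s).

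Other values that changed sign were all uncalled. Between the tlr4f/f-lysM-cre columns the log2 fold change of Hpgds was 0.27 under limma. In that comparison, leaving out 1 library gave -0.66 to 0.86 for Ptgs1, -0.49 to 0.18 for Hpgds (with 0.15 and 0.05 also above 0), -1.27 to 1.36 for Alox5 and -0.84 to 0.52 for Ltc4s (with 0.06 also above 0). Between the tlr4f/f columns it gave -0.09 to 0.77 for Ptgs1 (with -0.03 also below 0), -1.71 to 0.24 for Ptgs2 and -0.19 to 0.54 for Ptger4. In the interaction Alox5ap was at -0.01 under DESeq2 and RLE factors, -0.00 under limma and -0.08 to 0.19 with 1 library left out. Leaving out 1 library gave interactions of -0.96 to 0.73 for Ptgs1, -1.90 to 0.04 for Ptgs2, -0.19 to 6.15 for Alox5 and -0.16 to 1.90 for Ltc4s.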
